A study of Mus musculus with 10 samples.

Results

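Schlafen genes are a family that the mouse carries as a cluster, and 7 of them (Slfn1, Slfn2, Slfn3, Slfn4, Slfn5, Slfn8 and Slfn9) were followed here across cultures of a breast cancer cell line. They are 7 of the 17171 genes in the expression table and were taken by symbol. The family was selected on its values in these same libraries, so its values in the comparisons of test with control, and of one label set with another, are given as a description. Where a member passed the threshold applied to all genes, this is stated once beside the share of all genes that did, and nothing is drawn from it. RNA had been sequenced in 10 libraries of the PyMt cell line, which was derived from tumors of MMTV-PyMt transgenic C57BL/6 mice, in which a mammary tumor virus promoter drives the polyoma middle T antigen. The cells grew on low adherence plates with insulin in supernatant of CD4+ T cells. For 6 test libraries the methods give mice with the Tslp transgene, driven in the skin by the keratin 14 promoter, as the source of these T cells. The study's figure legends call the test T cells wild type. For 4 control libraries the T cells came from control mice, given as Tslpr knockout in the methods and as PyMttg or Tslp-PyMttg TslprKO in the labels. T cells of both conditions were sorted from breast tumors and draining lymph nodes and activated outside the animal with anti-CD3, anti-CD28, IL-2 and TSLP, so TSLP was present in the culture of both conditions. The labels tag the libraries in 5 sets of 2, Blank and Control among the control libraries and Test1, Test2 and Test3 among the test libraries. The tag Blank is not explained and both sets carry a control title, so they are kept apart below. The growth protocol also names medium without supernatant, but ties it to no library. Separate cultures are not stated for the libraries, so the spread between them may be technical. Values are FPKM, sequenced fragments scaled to transcript length and to the mapped reads of the library, and levels of different genes are compared on this scale per length.

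Schlafen proteins share an N-terminal core and were first described in mouse T cells, where their expression changes as cells leave or enter quiescence. Many are induced by interferons, and the family includes nucleases that cleave transfer RNA. Short members (Slfn1 and Slfn2) have little beyond the core, Slfn3 and Slfn4 are of intermediate length, and long members (Slfn5, Slfn8 and Slfn9) add a helicase-like region. The reference coding sequences followed this division, with 337 residues in Slfn1, 378 in Slfn2, 517 in Slfn3, 602 in Slfn4, 884 in Slfn5 and 910 in each of Slfn8 and Slfn9. All 7 lie on chromosome 11 of GRCm38, between 82951349 and 83215154, a stretch of 263.8 kb. Slfn5 comes first, followed by Slfn9, Slfn8, the pseudogene Slfn10-ps, Slfn2, Slfn1, Slfn4 and Slfn3, and Slfn8 and Slfn9 lie on the minus strand.

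Promoter windows of 300 bases, from 250 before to 50 after the annotated start, were taken for all 7 genes from RefSeq on GRCm38.p6. The windows of Slfn2, Slfn8, Slfn9 and Slfn3 are printed because these genes carry nearly all of the family's signal and because Slfn2 and Slfn8 varied more between label sets than Slfn9 and Slfn3 did. Capitals mark 10-base matches to the core of the interferon-stimulated response element (ISRE) in Slfn8 and Slfn9, and in Slfn2 and Slfn3 short purine-rich motifs described after the sequences. The windows lie at chr11:83064862-83065161 on the plus strand for Slfn2, chr11:83020761-83021060 on the minus strand for Slfn8, chr11:82991781-82992080 on the minus strand for Slfn9 and chr11:83191080-83191379 on the plus strand for Slfn3. Each is written in the direction of its gene.
Slfn2: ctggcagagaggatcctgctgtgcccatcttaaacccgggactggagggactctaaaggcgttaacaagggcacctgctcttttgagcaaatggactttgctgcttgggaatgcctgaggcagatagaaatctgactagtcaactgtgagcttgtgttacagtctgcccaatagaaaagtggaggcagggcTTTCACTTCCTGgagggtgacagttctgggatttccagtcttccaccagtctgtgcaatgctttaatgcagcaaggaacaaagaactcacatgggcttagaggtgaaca
Slfn8: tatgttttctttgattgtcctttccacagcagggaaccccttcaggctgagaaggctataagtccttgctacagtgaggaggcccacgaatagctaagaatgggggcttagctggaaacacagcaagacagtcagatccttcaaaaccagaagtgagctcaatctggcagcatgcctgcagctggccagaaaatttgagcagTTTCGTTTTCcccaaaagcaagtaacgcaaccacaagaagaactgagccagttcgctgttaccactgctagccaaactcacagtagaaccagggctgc
Slfn9: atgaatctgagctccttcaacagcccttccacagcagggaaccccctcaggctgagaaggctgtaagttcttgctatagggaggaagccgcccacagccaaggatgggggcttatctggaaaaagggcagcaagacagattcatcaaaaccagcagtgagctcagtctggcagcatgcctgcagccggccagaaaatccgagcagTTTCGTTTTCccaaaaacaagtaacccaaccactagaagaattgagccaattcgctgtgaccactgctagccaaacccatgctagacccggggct
Slfn3: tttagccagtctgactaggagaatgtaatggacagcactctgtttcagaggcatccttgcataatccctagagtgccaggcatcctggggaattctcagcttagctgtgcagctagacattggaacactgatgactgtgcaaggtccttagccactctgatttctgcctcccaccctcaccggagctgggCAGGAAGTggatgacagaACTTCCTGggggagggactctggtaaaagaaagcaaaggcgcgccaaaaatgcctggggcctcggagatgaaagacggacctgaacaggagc
The ISRE core was searched on both strands as GAAANNGAAA, which reads TTTCNNTTTC on the other strand, and it occurred in 3.44% of the 32851 promoter windows in the table. Among the 7 genes it was matched in Slfn8 (first base at -48 from the start), Slfn9 (at -45) and Slfn5 (at -155, in the form GAAAAAGAAA). The match TTTCGTTTTC was the same in Slfn8 and Slfn9, whose windows were 83.4% identical over 295 aligned bases. A further annotated start of Slfn8 places the same match at -136. The window of Slfn2 held no ISRE core as searched. It held TTTCACTTCC at -59, a match to GGAANNGAAA (TTTCNNTTCC on the other strand), a composite of ETS and IRF sites present in 2.72% of windows. That match overlaps the octamer ACTTCCTG at -55, which was also found in Slfn1, Slfn4 and, on both strands, Slfn3, and in 3.33% of all windows. The composite and the octamer were chosen after the sequences had been seen. A gamma-activated site searched as TTCNNNGAA was matched in 8.30% of windows and in none of these 7 genes. The NF-kB site, in 8.46% of windows, was matched in Slfn9 and Slfn1, and TATAAA, in 13.6%, in Slfn4. A match is a string of letters and does not show that a factor bound there.

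The 7 genes fell into 2 kinds by level. Slfn9, Slfn8, Slfn3 and Slfn2 passed the filter on low values (at least 1 FPKM in at least 4 libraries), as did 11169 genes in all, whereas Slfn5, Slfn4 and Slfn1 did not. Slfn2 was under 1 FPKM in both Blank libraries and passed only through the other 8. Averaged within sets, the order of levels in Blank was Slfn9, Slfn8, Slfn3, Slfn2, Slfn5, Slfn4 and Slfn1, and in Test3 it was Slfn2, Slfn9, Slfn8, Slfn3, Slfn5, Slfn4 and Slfn1. In Test3 the Slfn2 and Slfn9 libraries overlapped, so these neighbours in the order were not separated by more than their spread.

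**Figure D1:**
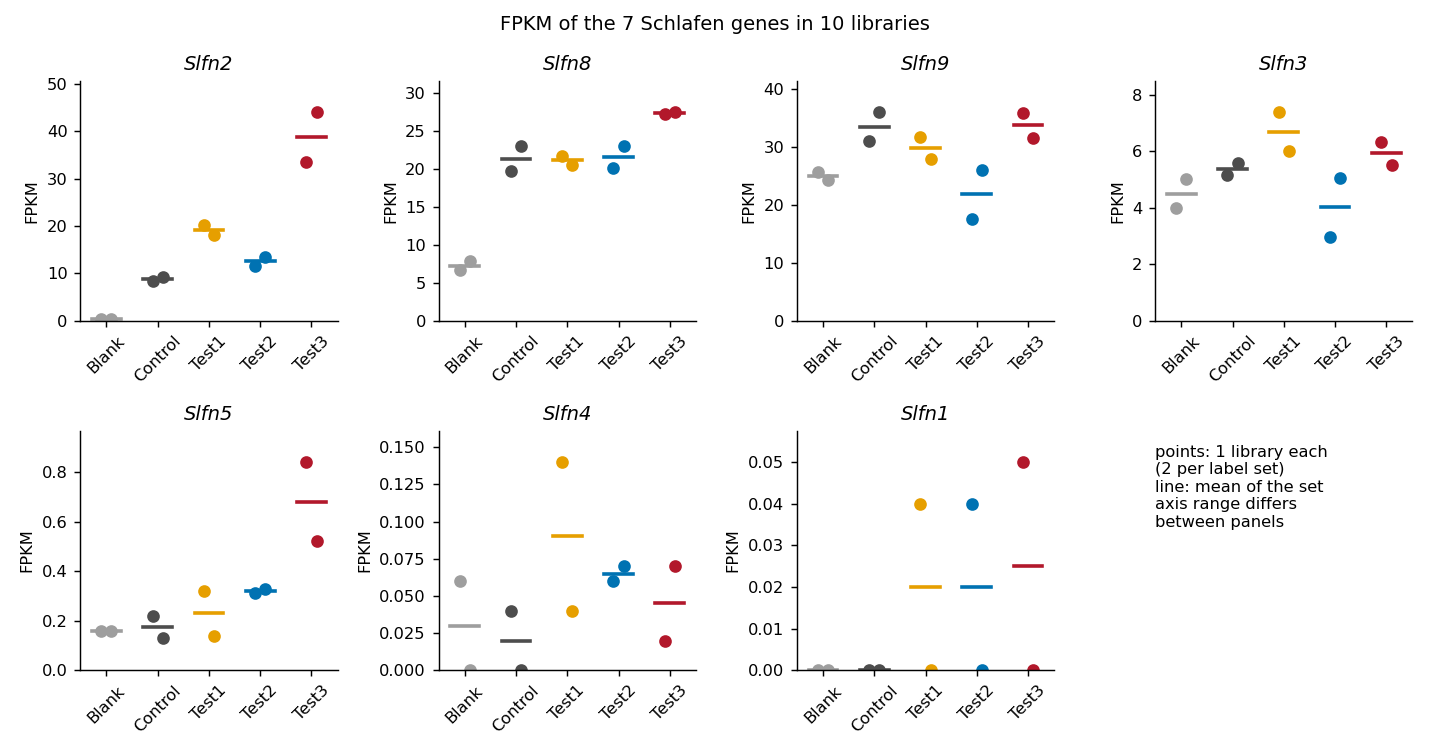
FPKM (vertical axes, linear from 0, with a different range in each panel) of each Schlafen gene in the 5 label sets (horizontal axes). Points are single libraries and lines are means of 2 libraries. Slfn2 runs from 0.40 FPKM in Blank-2 to 44.0 FPKM in Test3-2, Slfn8 separates Blank from the other 4 sets, and the sets of Slfn9 and Slfn3 lie close together.

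Slfn2, whose loss in mice leaves T cells unable to keep quiescence, varied most. It stood at 0.45 and 0.40 FPKM in Blank, at 8.37 and 9.23 in Control, at 20.2 and 18.0 in Test1, at 11.6 and 13.6 in Test2, and at 33.5 and 44.0 in Test3. The sets did not overlap, and every test library was above every control library. The mean of Control was 20.7-fold that of Blank, and the means of Test1, Test2 and Test3 were 2.17-fold, 1.43-fold and 4.40-fold that of Control. The test mean of 23.5 ± 12.7 FPKM (SD, n = 6) stood against a control mean of 4.61 ± 4.85 (SD, n = 4), and the control SD exceeded its mean because that group holds the Blank and the Control libraries. On the log2(FPKM + 1) scale, on which changes of low genes are understated, the difference was 2.56 (SE 0.60) for test versus control, 2.78 (SE 0.16) for Control versus Blank and 1.17 (SE 0.13) for the test sets versus Control. Control libraries enter the last 2 of these with opposite sign, so they are not independent. Within the test libraries Test3 was higher than the mean of Test1 and Test2 by 1.26 (SE 0.14), and Test1 was higher than Test2 by 0.57 (SE 0.16). The Blank values rest on an estimated 9.88 and 8.82 reads, against 182 to 890 reads in the other libraries. The log2 difference of test versus control was 2.11 without Blank-1, 2.09 without Blank-2 and 1.17 with Control alone as the control group.

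Slfn8, a long member with the helicase-like region, differed between Blank and the rest but hardly between Control and test. It stood at 6.67 and 7.84 FPKM in Blank, 19.6 and 22.9 in Control, 21.7 and 20.5 in Test1, 20.1 and 23.0 in Test2, and 27.2 and 27.4 in Test3. Blank lay below all other libraries, Control overlapped Test1 and Test2, and Test3 lay above all others. The Control mean was 2.93-fold the Blank mean, and the log2 difference was 1.43 (SE 0.13). For the test sets versus Control the log2 difference was 0.12 (SE 0.11). The mean of Test3 was 1.28-fold that of Control, and Test3 exceeded the mean of Test1 and Test2 by 0.35 (SE 0.12) on the log2 scale. For test versus control as labelled, the log2 difference of 0.84 (SE 0.29) joins these unlike parts, and it was 0.56 without Blank-1, 0.63 without Blank-2, 1.04 without Control-1, 1.11 without Control-2 and 0.12 with Control alone as control.

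Slfn9, the closest relative of Slfn8 in sequence, had the highest level of the family in Blank and Control and varied little. It stood at 25.6 and 24.2 FPKM in Blank, 31.0 and 35.9 in Control, 31.7 and 27.8 in Test1, 17.6 and 26.0 in Test2, and 35.8 and 31.6 in Test3. Test and control libraries overlapped, at 28.4 ± 6.32 (SD, n = 6) and 29.2 ± 5.39 FPKM (SD, n = 4), and the log2 difference was -0.05 (SE 0.18). Control lay above Blank by 0.41 (SE 0.18), and the average of the test sets lay below Control by a log2 difference of -0.26 (SE 0.14). Test3, at a mean of 33.7 FPKM, was not below Control, at 33.5, and Test2 was lowest, at 21.8. Slfn8 and Slfn9 were 92.7% identical over 2730 aligned coding bases. Control over Blank was 2.93-fold in Slfn8 and 1.35-fold in Slfn9. Both genes carry the same ISRE-core match, and its part in these values was not tested.

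Slfn3, of intermediate length and studied in the mouse and rat intestine for its link with epithelial differentiation, stayed between 2.98 and 7.39 FPKM. It stood at 3.99 and 5.03 FPKM in Blank, 5.16 and 5.59 in Control, 7.39 and 6.0 in Test1, 2.98 and 5.05 in Test2, and 6.34 and 5.53 in Test3. The log2 difference of test versus control was 0.11 (SE 0.18) and that of Control versus Blank 0.22 (SE 0.21), and test and control libraries overlapped. Test1 was above Test2 by 0.64 (SE 0.21), which was 0.34 without Test2-1 and 0.95 without Test2-2. Test2-1 was the lowest library for Slfn9 and for Slfn3, and it had the highest summed FPKM over all genes (487591). With libraries scaled by the median ratio, Test1 versus Test2 was 0.69 in Slfn3 and 0.51 in Slfn9, against 0.64 and 0.46 as reported.

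**Figure D2:**
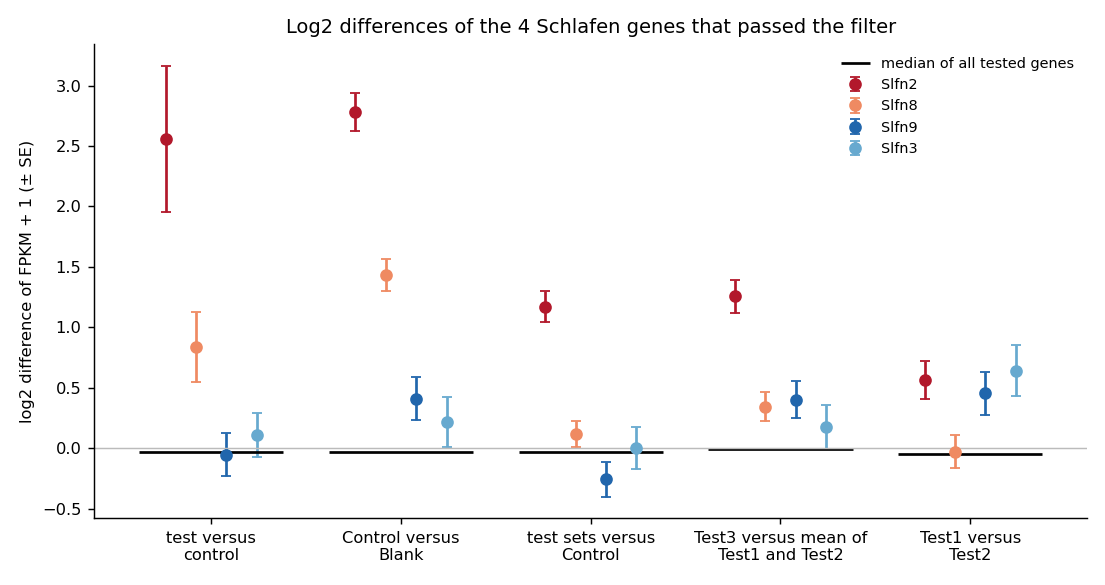
Log2 differences of FPKM + 1 (vertical axis) for Slfn2, Slfn8, Slfn9 and Slfn3 in 5 comparisons (horizontal axis). Points are estimates over 10 libraries, bars are 1 SE, and black lines are the median of all 11169 tested genes, which lies between -0.05 and -0.01. Slfn2 is at 1.17 or higher in the first 4 comparisons, whereas Slfn9 and Slfn3 stay within 0.64 of 0 in all 5.

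Slfn5, Slfn4 and Slfn1 stayed under 1 FPKM in all 10 libraries. Slfn5, a long member known as an interferon-induced nuclear protein, stood at 0.16 and 0.16 FPKM in Blank, 0.22 and 0.13 in Control, 0.32 and 0.14 in Test1, 0.31 and 0.33 in Test2, and 0.84 and 0.52 in Test3. Both Test3 libraries were above the other 8, with an estimated 54.7 and 37.8 reads against 9.75 to 27.3. Slfn4, known from mouse macrophages and other myeloid cells, was listed at 0 in Blank-2 and Control-2 and reached at most 0.14 FPKM, in Test1-1, which is an estimated 6.62 reads. Slfn1, which slows growth when expressed in mouse T cells, was listed at 0 in 7 libraries and stood at 0.04 FPKM in Test1-1 and Test2-1 and 0.05 FPKM in Test3-1, which is about 1 read in each. Differences between sets in Slfn4 and Slfn1 were not detectable at this depth, and no fold change is given.

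Summed over the 7 genes, Schlafen expression was 36.9 and 37.6 FPKM in Blank, 64.4 and 73.8 in Control, 81.4 and 72.5 in Test1, 52.7 and 68.0 in Test2, and 103.7 and 109.1 in Test3. Test3 was above and Blank below all other libraries, and Control overlapped the range of Test1 and Test2. Slfn9 made up 66.8% of the Blank sum and 31.7% of the Test3 sum on average, while Slfn2 made up 1.14% and 36.3%. Slfn8 made up 19.5% in Blank and 25.7% in Test3, with its largest share, 36.0%, in Test2.

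**Figure D3:**
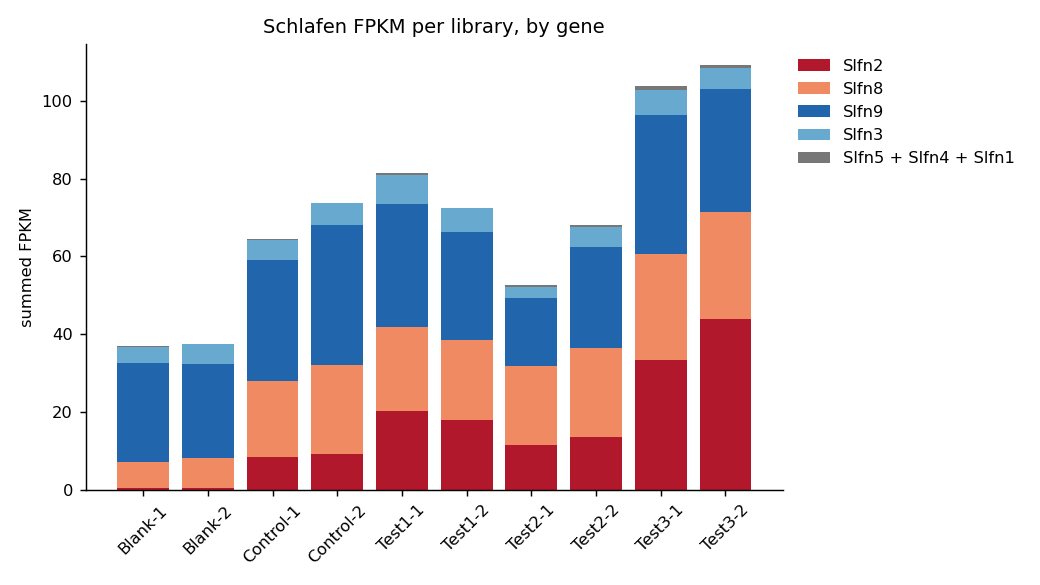
Summed FPKM of the Schlafen genes (vertical axis, from 0) in each of 10 libraries (horizontal axis), divided by gene. Bars have no error because each is 1 library. The Slfn9 part is 17.6 to 35.9 FPKM, the Slfn8 part is larger in Control than in Blank, and the Slfn2 part is largest in Test3, at 33.5 and 44.0 FPKM.

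These values were read against all tested genes. In limma at an adjusted p under 0.05, 2.95% of the 11169 tested genes were higher in test than in control, and Slfn2 was the member past this threshold. It passed in 13 of 19 alternatives. It did not pass without the filter, with Control alone as control, or when either Blank library, Test1-2 or Test3-2 was left out. In that comparison 330 genes were higher and 549 lower, and with libraries scaled by the median ratio 362 were higher and 383 lower. For Control versus Blank 4.55% of genes were higher, Slfn2 and Slfn8 among them. For the test sets versus Control 2.0% were higher, and for Test3 versus the mean of Test1 and Test2 3.35%, with Slfn2 in each. For Test1 versus Test2 0.116% were higher and no member was past the threshold. All libraries of the higher group lay above all of the lower group in 3.21% of genes for test versus control (Slfn2), in 23.2% for Control versus Blank (Slfn2, Slfn3, Slfn8 and Slfn9), in 4.52% for the test sets versus Control (Slfn2), in 13.7% for Test3 versus Test1 and Test2 (Slfn2 and Slfn8) and in 15.8% for Test1 versus Test2 (Slfn2, Slfn3 and Slfn9). With the family chosen by these contrasts, nothing is read from the members' counts.

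Sequence shared between family members limits how firmly reads can be assigned, and the counting of shared reads is not given in the sources used here. Of the 50-base stretches of a transcript, 4.27% in Slfn2 occurred also in Slfn4, whereas 9.82% in Slfn8 and 6.24% in Slfn9 occurred in the other of this pair. A further 10.7% of Slfn8 and 8.44% of Slfn9 occurred in Slfn10-ps. Slfn3 had the largest share, 23.7% in any other gene, of which 14.3% in Slfn4, and the coding sequences of Slfn3 and Slfn4 were 95.3% identical over 1521 aligned bases. With 100-base stretches the shares in any other gene were 0.128% in Slfn2, 3.71% in Slfn8, 3.90% in Slfn9 and 5.42% in Slfn3. Slfn5 overlaps the antisense gene Slfn5os, with which it shared 7.88% of 50-base stretches, and whether counting used strand is not given. The values of Slfn3, Slfn4, Slfn5, Slfn8 and Slfn9 are therefore uncertain. These shares do not bound the error of an FPKM, which was not tested, and a low gene such as Slfn4 could draw many of its reads from Slfn3. Slfn1, at 0.606%, was nearly free of shared sequence.

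Slfn10-ps, the pseudogene between Slfn8 and Slfn2, is not a member and was tested, but 13.5% of its 50-base stretches occurred also in Slfn9 and 11.8% in Slfn8, which stand at far higher levels, so its values are not independent of theirs. It stood at 0.58 and 0.69 FPKM in Blank, 1.67 and 1.62 in Control, 0.99 and 1.61 in Test1, 1.19 and 1.18 in Test2, and 1.34 and 1.18 in Test3. Blank lay below the other sets, but the log2 difference of Control versus Blank, 0.69 (SE 0.19), did not pass the threshold (adjusted p = 0.0613, limma) and passed in 1 of 17 alternatives, the fit without a trend. For the test sets versus Control it was -0.24 (SE 0.15, adjusted p = 0.49). The other 2 Schlafen-named genes of the table, Slfnl1 and Slfn14-ps, were at or near 0.

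The genes beside the cluster were compared because the members are neighbours. Of the 10 table genes nearest its ends, 5 on each side, Rffl, Rad51d and Nle1 passed the filter and are reported. None of these 3 passed the threshold in limma for Control versus Blank, with log2 differences of 0.10, -0.25 and 0.05 and adjusted p of 0.441 or higher. For the test sets versus Control the log2 differences were 0.29, 0.05 and 0.28 with adjusted p of 0.268 or higher. Within the cluster, Slfn2 at 2.78 and Slfn8 at 1.43 (Control versus Blank) lie on either side of Slfn10-ps, and Slfn1, beyond Slfn2, was listed at 0 in Blank and Control alike.

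**Figure D4:**
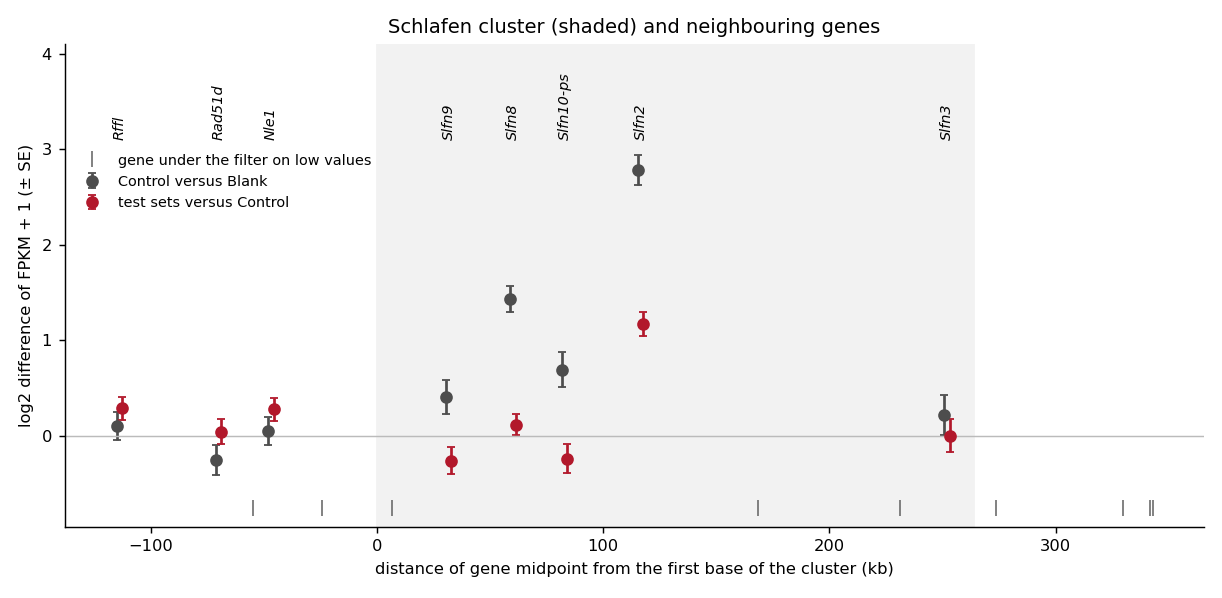
Log2 differences of FPKM + 1 with 1 SE (vertical axis) against distance along the chromosome from the first base of the cluster in kb (horizontal axis), for Control versus Blank in grey and the test sets versus Control in red. The shaded stretch of 263.8 kb holds the Schlafen genes, and ticks near the lower edge mark genes under the filter. Slfn2 stands highest in both comparisons, and the 3 flanking genes shown lie between -0.25 and 0.29.

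Interferon receptors and signalling genes were looked at because Schlafen genes are known interferon targets. Of 23 tested genes in this list, 14 were higher in Control than in Blank, beside 4.55% of all tested genes. The median log2 difference of the list was 0.82 against -0.03 over all tested genes (limma). Irf1, an early transcription factor of the interferon response, rose from 22.4 to 229.1 FPKM (3.30, SE 0.10, adjusted p = 2.24e-08). Stat2 (2.65, SE 0.12), Irf7 (1.90, SE 0.21), Irf9 (1.87, SE 0.16) and the inhibitor Socs1 (3.67, SE 0.37) rose as well, with adjusted p of at most 0.000343. The receptor chains Ifnar1 (0.04, SE 0.11) and Ifngr1 (-0.04, SE 0.18) did not pass the threshold. The chains Ifnar2 (0.79, SE 0.13, adjusted p = 0.00472) and Ifngr2 (0.82, SE 0.11, adjusted p = 0.00144), named after their values had been seen, did pass.

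In the test sets versus Control 3 of 23 in the same list rose and 1 fell, beside 223 and 180 of 11169 genes. The median of the list was 0.10 against -0.03. Socs3, an inhibitor of cytokine receptors, rose by 1.59 (SE 0.14, adjusted p = 0.000211), and the receptor chain Ifngr2 and the factor Irf8 were the other 2 that rose (0.40 and 0.59). These 3 are outside the genes named by rule and were added after their values had been seen. Ifngr2 passed in 5 of 17 alternatives and lost the call without Control-1 or Control-2 (highest adjusted p over alternatives 0.223 in limma), and Irf8 also lost it without either Control library (0.0704). Irf1 stood at 266.9, 236.9 and 315.9 FPKM in the test sets, with a log2 difference of 0.24 (SE 0.09) that did not pass the threshold (adjusted p = 0.182). For test versus control as labelled, 3 of 23 rose, beside 2.95% of all tested genes, with a median of 0.72.

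Interferon-induced effectors that act on RNA and translation, the processes in which Schlafen nucleases work, were counted in the same way. Of 22 tested genes 11 rose from Blank to Control, beside 4.55% of all tested genes, with a median of 0.84 against -0.03. Isg15, a ubiquitin-like modifier, rose from 6.20 to 18.3 FPKM (1.43, SE 0.16, adjusted p = 0.000373), and the kinase Eif2ak2 from 19.5 to 36.9 (0.89, SE 0.15, adjusted p = 0.00422, and 0.0571 without Blank-2). Oas2, an activator of RNA cleavage, was under 1 FPKM throughout. In the test sets versus Control 0 of 22 passed in limma, with 2 under an unadjusted p of 0.05 and a median of -0.02. For test versus control as labelled 0 of 22 passed as well, with 9 under an unadjusted p of 0.05 and a median of 0.44. Slfn2 differed by 1.26 in Test3 versus the mean of Test1 and Test2. In that comparison 3 of the 22 rose and 3 fell, beside 374 and 350 of 11169 genes. Ifit1, which binds foreign RNA, was among those that rose (1.47, SE 0.14, adjusted p = 0.000255), from 6.48 and 5.41 FPKM in Test1 and Test2 to 18.2 in Test3.

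Genes of cell cycle entry and quiescence were listed because Slfn1 and Slfn2 are known for effects on growth of T cells. For test versus control 1 of 24 rose and 4 fell, beside 330 and 549 of all 11169 tested genes. The median of the list was -0.14 against -0.03 over all tested genes. Cdkn1a, a cyclin-dependent kinase inhibitor, was the gene that rose (0.69, SE 0.17, adjusted p = 0.0293), and its means of 41.9, 37.5, 51.5, 61.0 and 84.8 FPKM across Blank, Control and the sets Test1 to Test3 were highest in Test3, as those of Slfn2 were. Ccnd1, a cyclin of the first phase of the cycle, fell by 0.39 on the log2 scale (SE 0.09, adjusted p = 0.0284). Cdkn1b, Rb1 and Rbl2, which restrain entry into the cycle, were the other 3 that fell and were named after their values had been seen. Cdkn1a, Ccnd1, Cdkn1b, Rb1 and Rbl2 all lost the call without Blank-1 or Blank-2 and with Control alone as control, with the same sign (highest adjusted p over 19 alternatives 0.275 to 0.478 in limma, and 0.266 for Cdkn1a). All but Rbl2 also lost it when label sets were random effects, and Rb1 passed in 7 of 19 alternatives. In the fit of label sets, Cdkn1a was higher in the test sets than in Control (0.76, SE 0.12, adjusted p = 0.00787, limma). It was the 1 call among the 24 genes in that comparison, in which 2.0% of all tested genes were higher. The proliferation marker Mki67 (-0.64, SE 0.21, adjusted p = 0.0799), Myc (0.18, SE 0.09, adjusted p = 0.235) and the quiescence factor Klf2 (-0.33, SE 0.18, adjusted p = 0.285) did not pass the threshold. Means of Mki67 were 165.7, 113.8, 84.5, 70.7 and 116.8 FPKM across Blank, Control and the sets Test1 to Test3. They were thus lowest in Test2, not in Test3. For Control versus Blank, the comparison in which Slfn2 differed by 2.78, 1 of 24 rose, beside 4.55% of all tested genes. Mki67 stood at a difference of -0.54 there (SE 0.18, adjusted p = 0.137, limma).

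Likeness was measured as Pearson's r of log2(FPKM + 1) over the 10 libraries, which share label sets in pairs, and is given as a description. The 5 genes most like Slfn2 among 11168 were Cxcl10, Ubd, Ifi205, Stx11 and Fst, with r between 0.989 and 0.992. Cxcl10, a chemokine induced by interferon, had means of 40.6, 692.7, 1558, 1309 and 3524 FPKM across Blank, Control and the sets Test1 to Test3, the same order of sets as Slfn2. Those most like Slfn8 were Gbp6, Dtx3l, Gbp4, Ifi203 and Gbp9, with r between 0.988 and 0.992. Gbp6, an interferon-induced guanylate-binding protein, had means of 8.07, 244.6, 283.2, 309.7 and 467.4 FPKM. Irf1 ranked as number 16 in likeness to Slfn8 (r = 0.983) and as number 81 in likeness to Slfn2 (r = 0.949). The 5 most like Slfn9 were Mycbp2, Pcdh1, Prrg4, Pikfyve and Myof (r between 0.899 and 0.918), and those most like Slfn3 were Steap2, Nupl1, Prkaa1, Hivep1 and Scyl2 (r between 0.920 and 0.939). Between members, r was 0.958 for Slfn2 with Slfn8, 0.827 for Slfn3 with Slfn9, and between 0.392 and 0.435 for the other 4 pairs.

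Schlafen genes are expressed in T cells and myeloid cells, and the supernatants came from T cells, so markers of other cells were read in the same libraries. Of the 12 epithelial markers listed, 10 were measured. Krt18 (729.6 to 1882 FPKM), Cdh1 (8.69 to 14.2) and Epcam (3.59 to 8.19) were present in all libraries. Krt14 stood at 0.39 to 1.61 FPKM, and Krt5 and Trp63 reached at most 0.07 and 0.32. The keratins Krt8 and Krt18 differed between sets. Krt8 was lower in Test3 than in Test1 and Test2 by a log2 difference of -1.07 (SE 0.13, adjusted p = 0.00104, limma), at a mean of 417.7 FPKM against 835.4 in Test1 and 919.9 in Test2. Krt18 was lower there as well (-0.87, SE 0.15, adjusted p = 0.00901), and Krt8 (0.84, adjusted p = 0.00592) and Krt18 (1.19, adjusted p = 0.00193) were higher in Control than in Blank. Krt8 and Krt18 were thus lowest in Blank and Test3, the sets in which Slfn2 was lowest and highest. Cldn3 was also lowest in these sets, at means of 63.2 and 105.0 FPKM. Krt7 had its lowest mean in Test1 (20.9 FPKM), and Cldn4 had its highest in Test3 (10.3 FPKM). The part of these markers in the Schlafen values was not tested. Of 12 T cell markers 5 were in the table, and their summed FPKM was 8.63 to 10.6 in control and 5.55 to 24.6 in test libraries. Cd3d had its highest value, 16.7 FPKM, in Test3-1, beside 5.17 in Test3-2 and 0.98 to 5.67 in the others. The log2 difference of Cd3d for Test3 versus the mean of Test1 and Test2 was 1.34 (SE 0.42, adjusted p = 0.0942, limma). Lck, Cd28 and Cd5, further defining T cell markers, reached at most 0.26, 0.22 and 0.11 FPKM, whereas Cd247, the remaining T cell marker of the table, stood at 3.16 to 7.80 FPKM over the 10 libraries. Of the 10 myeloid markers measured, 7 were under 1 FPKM in all libraries. The others were Cd68 (4.65 to 9.66 FPKM), Cd14 (4.85 to 12.3) and S100a8 (2.52 to 14.9), which made up most of the sum. The summed FPKM of the list was 22.2 to 28.4 in control and 15.2 to 37.8 in test libraries, lowest in Test3. Among the 7 low markers, Mrc1, Lyz2 and Fcer1g had their highest means in Test3 (0.79, 0.52 and 0.345 FPKM). The rest had theirs in other sets. Of 4 B and NK cell markers and 10 fibroblast and endothelial markers, all 4 and 9 were under 1 FPKM throughout. A part of Cd3d-expressing cells in the Schlafen values was not tested, and in bulk RNA fewer cells of a type and less RNA per cell cannot be told apart. Interferon ligands were represented by 1 of 19 listed genes, Ifnz, at 0.28 FPKM or less.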

How the data were processed

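RNA of PyMt cells in 10 libraries was sequenced at BGI (Illumina HiSeq) and aligned with Bowtie to mm10, as the study's methods and the submitters' notes give it. The authors deposited FPKM with 2 decimals, and for the program behind them, the annotation and the handling of shared reads no entry is given in the sources used here. Read totals were estimated from the spacing of low values of 5571 genes with 1 transcript length, as 10.9 to 14.75 M reads (M, mega), and FPKM sums per library were 414783 to 487591 over 14074 to 14964 genes above 0. The study's own tests need counts, so limma 3.58.1 (R 4.3.3, trended eBayes, two-sided p adjusted by Benjamini-Hochberg over 11169 genes) was run on log2(FPKM + 1). Test and control were compared over 10 libraries, and the other comparisons came from 1 fit of the 5 label sets, with the spread pooled within sets. The fit of label sets was tested on simulated data with independent noise for each library, and only Control versus Blank was checked. The fit of test versus control was not checked in this way.

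The members, gene lists, motifs and named genes were chosen with earlier results of these data known. Named genes were the 7 members, the fixed genes of the lists, the 5 genes most like each tested member and the 5 table genes nearest each end of the cluster. Some of the named genes are not reported here, while the counts over lists and over all genes were left unchanged. Names and coordinates came from RefSeq (GRCm38.p6), which matched 17113 of 17171 genes, and 24 symbols that a spreadsheet had turned into dates were restored. Transcripts came from GENCODE on the same build and sequences were aligned with MAFFT 7.526. Python 3.11.15, pandas 2.3.3 and matplotlib 3.10.9 were used. Alternatives covered the pseudocount, the filter, scaling, the trend, a random effect of the label set, Control alone as control, a block on the replicate number and each library left out.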

Additional observations from a re-analysis of the deposited data

Results flagged for a closer look

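Slfn2 differed between test sets, by 1.26 on the log2 scale for Test3 versus the mean of Test1 and Test2, and by 1.06 to 1.45 with either Test3 library left out. The Slfn3 sets lay on opposite sides of Control. Both Test1 libraries (mean 6.70 FPKM) were above both Control libraries and both Test2 libraries (mean 4.02 FPKM) were below them. These opposite sides were not tested as such, and the log2 difference of Test1 versus Test2 was 0.34 without Test2-1. In 14 groups examined, 4 control or 6 test libraries of each of the 7 members, no single library lay far from the others by Dixon's criterion, which by chance marks about 1 in 20 groups. That rate does not hold for every group. The control libraries of Slfn2 and Slfn8 split into Blank and Control, which hides a single distant library, and those of Slfn1 were all at 0.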

How the results depend on the processing

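Counts of genes past the threshold set the background beside the members, and they moved with the libraries used. For test versus control 879 genes passed, 548 without the filter, 302 when label sets were random effects, 44 with Control alone as control, and 145 to 1456 with 1 library left out (fewest without Blank-1 or Blank-2, most without Control-1). With 1 library left out the count was 331 to 649 for Control versus Blank (663 in all), 140 to 434 for the test sets versus Control (403), 168 to 740 for Test3 versus Test1 and Test2 (724) and 0 to 15 for Test1 versus Test2 (18, and 4 without the filter). Where 1 library of a set remains, its spread is assumed to be that of the other sets. A replicate block gave 554, 254, 431 and 11 genes in place of 879, 403, 724 and 18. The replicate numbers were not taken as pairs, because same-numbered libraries deviated with r between -0.52 and 0.26.

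The log2 differences of the members are a description under each alternative. For Slfn2 they ranged over 17 alternatives from 2.59 to 4.08 for Control versus Blank, from 1.11 to 1.24 for the test sets versus Control and from 1.06 to 1.45 for Test3, and over 19 alternatives from 1.17 to 3.29 for test versus control. For Slfn8 they ranged from 1.33 to 1.54 for Control versus Blank and from 0.12 to 1.11 for test versus control. FPKM at 2 decimals and about 1 read in Slfn1 leave its differences out of reach.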
